A study of Mus musculus with 22 samples.

Results

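The transcripts of 10 genes of the spermatogonial stem cell (SSC) and of the growth factor that maintains it were followed in RNA from whole mouse testes. They were taken by gene symbol from a list drawn up with earlier results of these data known: Gdnf, Gfra1, Ret, Etv5, Bcl6b, Lhx1, Id4, Eomes, Zbtb16 and Pou5f1. All 10 had a row among the 17931 gene symbols counted, and all 10 passed the filter on low counts together with 14640 symbols in all. The libraries came from 3 WT males, littermates of the mutants proven fertile by breeding, and from 3 MLX KO males, 1 of each genotype in every pair of littermates, all 7 months old. MLX is a basic helix-loop-helix leucine zipper protein that pairs with MondoA, ChREBP, MNT and MXD proteins, and the comparison asked how RNA in the testis differed when it was absent. The MLX KO allele lacked the exons for the dimerization and DNA-binding region in every cell of the body. It was made in AK7 embryonic stem cells and deleted with a Meox2-Cre allele that was later bred out, and males of this genotype are infertile. WT males carried neither the deletion nor a transgene, and the sources used here do not say from which of the stem cell clones the sequenced animals descended.

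SSCs are rare cells on the basement membrane of the seminiferous tubule that either renew themselves or enter differentiation. Sertoli cells and peritubular myoid cells secrete GDNF, which binds the anchored co-receptor GFRA1 on the stem cell and so activates the receptor tyrosine kinase RET. The signal keeps a set of transcription factors on, among them Etv5, Bcl6b and Lhx1, whose RNA falls when GDNF is taken away from cultured SSCs. Id4 and Eomes mark the most primitive fraction of these cells, Zbtb16 (PLZF) marks the undifferentiated spermatogonia as a whole, and Pou5f1 (OCT4) is the pluripotency factor that persists in germ cells.

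Library totals ran from 16674678 to 19742726 counts, so that 1 count stood for 0.0516 to 0.0636 CPM, the usual depth-normalised count, in which library sizes were first scaled by the trimmed mean of M values (TMM). Markers of elongating spermatids were lower in MLX KO. Summed over 10 of them the level lay between 28267 and 29276 CPM in WT and between 17396 and 20997 CPM in MLX KO, and over 10 spermatocyte markers between 1849 and 1902 CPM against 1627 to 1702 CPM. All 10 spermatid markers were called lower under TMM and under library size alone, while 6 of the 10 spermatocyte markers were called lower under TMM (median log2 fold change −0.16) and 1 under library size alone (−0.022). Of all genes tested, 20.6% were called lower under TMM and 8.66% under library size alone. Markers of the somatic cells were higher: 15 Sertoli markers summed to 1116 to 1177 CPM in WT and 1706 to 2062 CPM in MLX KO, 9 Leydig markers to 901 to 924 CPM against 1909 to 2527 CPM, and 9 macrophage markers to 86.3 to 92.0 CPM against 185 to 190 CPM. All members of these 3 somatic lists were called higher, where 24.8% of all genes were. The part of this shift in the results that follow was not tested. In whole tissue, fewer cells of a type and less RNA per cell cannot be told apart. For Mlx itself, WT libraries held 128, 96 and 98 counts, against 94, 109 and 102 for MLX KO. The count covers the whole gene, part of which the allele keeps, so it does not check the genotype labels.

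Lower in MLX KO were 4 of the genes: Eomes, Lhx1, Pou5f1 and Id4. Their promoters are shown because these are the members that moved. Each window is the 250 bases before an annotated RefSeq start on the gene's own strand, in GRCm38.p6, written 5′ to 3′. The Eomes window ends at 118478188, just past 118478186, where the span of the gene given below begins. Capitals mark 2 motifs searched on both strands, the E-box CANNTG that basic helix-loop-helix proteins bind and the CCAAT box (CCAAT or its complement ATTGG). The 2 motifs did not overlap in these 4 windows. The windows are chr9:118477939-118478188 on the plus strand for Eomes, chr11:84525535-84525784 on the minus strand for Lhx1, chr17:35505782-35506031 on the plus strand for Pou5f1 and chr13:48260866-48261115 on the plus strand for Id4.
Eomes: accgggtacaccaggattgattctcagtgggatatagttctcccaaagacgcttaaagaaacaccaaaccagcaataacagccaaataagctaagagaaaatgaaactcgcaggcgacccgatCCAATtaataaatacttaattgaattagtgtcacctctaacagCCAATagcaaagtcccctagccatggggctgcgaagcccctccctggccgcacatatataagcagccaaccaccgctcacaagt
Lhx1: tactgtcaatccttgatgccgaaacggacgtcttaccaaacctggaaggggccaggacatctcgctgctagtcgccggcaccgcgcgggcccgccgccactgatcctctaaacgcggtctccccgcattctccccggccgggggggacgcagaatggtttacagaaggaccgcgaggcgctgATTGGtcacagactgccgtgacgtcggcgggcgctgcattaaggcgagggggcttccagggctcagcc
Pou5f1: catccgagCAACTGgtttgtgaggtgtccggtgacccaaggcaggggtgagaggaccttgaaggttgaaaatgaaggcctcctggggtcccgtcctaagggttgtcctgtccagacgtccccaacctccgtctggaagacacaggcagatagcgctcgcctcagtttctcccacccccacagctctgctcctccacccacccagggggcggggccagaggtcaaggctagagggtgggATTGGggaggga
Id4: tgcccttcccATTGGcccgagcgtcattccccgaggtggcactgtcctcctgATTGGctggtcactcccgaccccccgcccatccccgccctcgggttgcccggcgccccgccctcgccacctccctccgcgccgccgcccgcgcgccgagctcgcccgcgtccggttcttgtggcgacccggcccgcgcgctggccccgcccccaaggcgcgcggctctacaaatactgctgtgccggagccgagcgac
Windows were found for 7 of the 10 genes, and since some have several annotated starts, they gave 10 windows. The E-box CACGTG, the form that MLX dimers prefer, stood in 0 of these 10 windows and in 6.02% of 32851 RefSeq promoter windows of the same length. CANNTG stood in 6 of 10 member windows and in 66.2% of all windows, and of the 4 printed windows that of Pou5f1 alone held it. A CCAAT box stood in 9 of 10 member windows and in 33.8% of all windows, and this motif was picked after the sequences had been seen. A match is a description of the letters in these windows only, and no match says nothing of a factor's binding elsewhere.

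In edgeR's quasi-likelihood fit, with p-values adjusted by Benjamini and Hochberg over all 14640 genes, 4 of the 10 genes passed 0.05, against a background of 45.4% of all genes tested. The share of members called, 40%, was thus near that of the whole testis transcriptome. All 4 were lower in MLX KO, where 20.6% of all genes were called lower. None was higher: 0 of 10 by edgeR, 0 at an unadjusted p under 0.05 and 0 by DESeq2, where 24.8% of all genes were called higher by edgeR and 19.4% by DESeq2. The median log2 fold change (LFC) of MLX KO over WT was −0.03 over the 10 genes and 0.03 over all genes tested. Scaling by library size alone moved the median of all genes up by 0.14 and left Eomes and Lhx1 as the 2 genes called lower, with 8.66% of all genes, and DESeq2 with the littermate pair as a term also called those 2, with 16.1% of all genes.

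**Figure D1:**
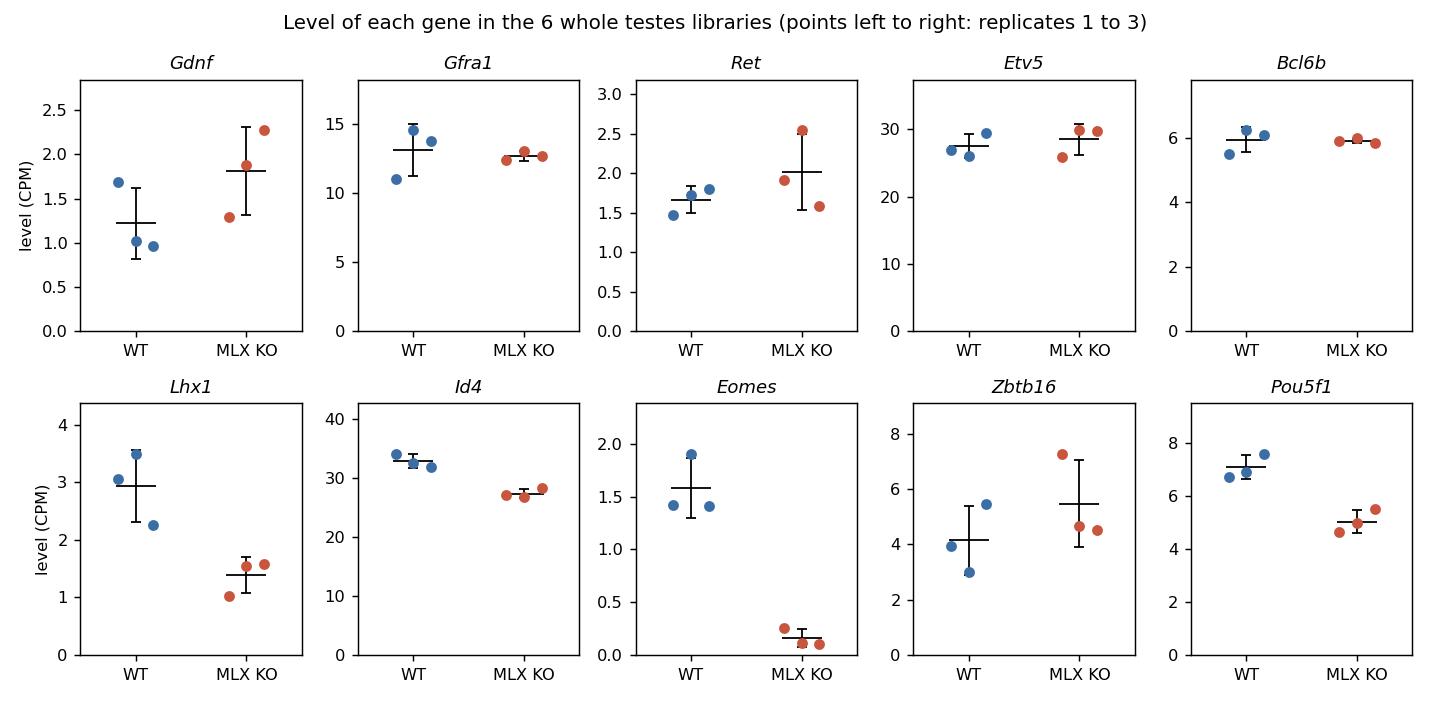
Level of each of the 10 genes in the 6 libraries, in CPM on a linear axis from 0 that differs between panels. Points are libraries in the order of replicates 1 to 3, the long bar is the mean of 3 and the error bar 1 SD. The WT and MLX KO points stand apart for Lhx1, Id4, Eomes and Pou5f1 and overlap for the other 6 genes.

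The ligand. Gdnf (chromosome 15, 7810048 to 7837580, mm10) encodes the growth factor itself and was a rare transcript, with 32, 16 and 17 counts in WT replicates 1 to 3 and 25, 34 and 43 counts in the MLX KO replicates of the same numbers. Its level was 1.69, 1.02 and 0.959 CPM in WT and 1.29, 1.88 and 2.28 CPM in MLX KO. WT replicate 1 stood above MLX KO replicate 1, its littermate, while the other pairs were higher in MLX KO, so the groups overlapped. The mean was 1.22 ± 0.405 CPM (SD, n = 3) in WT and 1.82 ± 0.497 CPM (SD, n = 3) in MLX KO. The LFC of 0.55 ± 0.30 (SE) had a 95% interval from −0.11 to 1.22, and the adjusted p was 0.157. Leaving out single libraries moved the LFC between 0.36 and 0.87, and over all alternatives the adjusted p ran from 0.0544 to 0.460, so no difference in Gdnf was detected at this depth. The interval still holds a rise of the size seen over the 15 Sertoli markers, whose median LFC was 0.78.

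The receptors. Gfra1 (chromosome 19, 58235581 to 58455946), the co-receptor that defines the GDNF-responsive cell, was measured far better, with 209 to 244 counts in every library. The levels were 11.02, 14.6 and 13.8 CPM in WT and 12.4, 13.1 and 12.7 CPM in MLX KO. All 3 MLX KO values lay inside the WT range, with means of 13.1 ± 1.86 CPM (SD, n = 3) and 12.7 ± 0.340 CPM (SD, n = 3). Its LFC of −0.04 ± 0.11 (SE) had an interval from −0.29 to 0.20 (adjusted p 0.779). Under this scaling that excludes a change as large as that of Lhx1 or Eomes, but not one of the size of Id4 (LFC −0.26). Its sign turned under library size alone (0.10) and without WT replicate 2 (0.035), still far from the threshold.

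Ret (chromosome 6, 118151748 to 118197744) encodes the kinase that GFRA1 activates, and at 27 to 46 counts per library it was rare as well. The levels were 1.48, 1.72 and 1.80 CPM in WT and 1.91, 2.54 and 1.59 CPM in MLX KO, and the groups overlapped through MLX KO replicate 3. The LFC was 0.27 ± 0.24 (SE), with an interval from −0.25 to 0.80 and an adjusted p of 0.375, and it moved to 0.079 without MLX KO replicate 2 and to 0.42 without MLX KO replicate 3.

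Transcription factors under GDNF. Etv5 (chromosome 16, 22381313 to 22439570), an ETS factor needed for SSC renewal, gave 410 to 561 counts per library. Its level was 26.9, 26.1 and 29.5 CPM in WT and 25.8, 29.9 and 29.7 CPM in MLX KO, with an LFC of 0.05 ± 0.08 (SE), an interval from −0.13 to 0.23 and an adjusted p of 0.648. Bcl6b (chromosome 11, 70224127 to 70229798), a transcriptional repressor induced by GDNF, stood at 5.48, 6.23 and 6.09 CPM in WT and at 5.88, 5.97 and 5.82 CPM in MLX KO. For Bcl6b the LFC was −0.01 ± 0.12 (SE), with an interval from −0.28 to 0.26 and an adjusted p of 0.962. MLX KO libraries overlapped WT for both genes, and neither interval reached an LFC as low as that of Lhx1 or Pou5f1. Which cells of the whole testis gave the Etv5, Bcl6b and Id4 counts was not tested.

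Lhx1 (chromosome 11, 84517975 to 84525534), a LIM homeobox factor downstream of GDNF, was the exception in this set. WT libraries held 58, 55 and 40 counts of it and MLX KO libraries 20, 28 and 30, or 3.06, 3.50 and 2.26 CPM against 1.03, 1.55 and 1.59 CPM. Every MLX KO library lay below every WT library, where 25.9% of all genes tested were lower without overlap and 56.2% did not overlap in either direction. The mean fell from 2.94 ± 0.630 CPM (SD, n = 3) to 1.39 ± 0.311 CPM (SD, n = 3). That made Lhx1 2.11-fold higher in WT, an LFC of −1.07 ± 0.25 (SE) with an interval from −1.62 to −0.53 and an adjusted p of 0.00471. Within littermate pairs 1 to 3 the log2 ratio was −1.57, −1.17 and −0.51. The call held in 13 of 13 alternatives, with an LFC between −1.24 and −0.89. Lhx1 lies on the chromosome of Mlx, 16.6 Mb away, and Bcl6b, which was not called, lies there too, 30.9 Mb away. Whether this position had a part in the Lhx1 difference was not tested.

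Markers of the primitive fraction. Eomes (chromosome 9, 118478186 to 118486132), a T-box factor found in a small subset of GFRA1-positive SSCs, had the largest difference of the 10. WT libraries held 27, 30 and 25 counts and MLX KO libraries 5, 2 and 2, which is 1.42, 1.91 and 1.41 CPM against 0.258, 0.111 and 0.106 CPM. MLX KO replicates 2 and 3 were thus at or under the floor of 3 counts, and the highest MLX KO library was well below the lowest WT library. The mean fell from 1.58 ± 0.284 CPM (SD, n = 3) to 0.158 ± 0.0864 CPM (SD, n = 3), with an LFC of −3.24 ± 0.39 (SE), an interval from −4.11 to −2.38 and an adjusted p of 0.000102. Over the group, 82 WT counts stood against 9 MLX KO counts, a depth-corrected WT to MLX KO ratio of 9.79 with a 95% interval from counting error alone of 4.91 to 22.2. The pairs gave log2 ratios of −2.46, −4.11 and −3.73, and the call held in 13 of 13 alternatives with an LFC between −3.77 and −3.02. The study had itself singled out Eomes and Lhx1 as lower in these samples, so their direction is not independent evidence.

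Eomes is also a factor of T and natural killer cells, so markers of those cells were read beside it. Of 16 such markers 15 had a row and 3 had enough counts to test. Of these 3, 0 were called by edgeR, where 45.4% of all genes were. At an unadjusted p under 0.05 there were 0, and by DESeq2 0. Without the filter on low counts all 15 were tested and 1 was called higher in MLX KO. That was Tbx21, with WT counts of 2, 1 and 2 against 8, 4 and 9 in MLX KO. The median LFC was 0.998 over these 15, most with few counts, and 0.02 over the 3 that passed the filter. Over all 15 the summed level was 4.13 to 8.18 CPM in WT and 4.81 to 11.8 CPM in MLX KO, which overlapped. The most abundant, Cd8b1, stood at 1.61 CPM in WT and 1.62 CPM in MLX KO. Ncr1, Gzmb and Prf1 were at 0 counts in all 3 WT libraries, and each of the other markers with a row had a count in at least 1 of them. The part of these cells in the Eomes counts was not tested.

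Id4 (chromosome 13, 48261116 to 48266028), an inhibitor of DNA binding whose expression marks cells with transplantable stem cell activity, had the highest CPM of the 10 in WT. It stood at 34.1, 32.5 and 31.8 CPM in WT and at 27.0, 26.8 and 28.2 CPM in MLX KO, with no overlap. The LFC was small, −0.26 ± 0.07 (SE), with an interval from −0.40 to −0.12 and an adjusted p of 0.00701, and all pairs were lower, by log2 ratios of −0.34, −0.28 and −0.17. It passed in 11 of 13 alternatives: library size alone gave −0.12 (adjusted p 0.175) and DESeq2 with the replicate block gave −0.29 (adjusted p 0.0522).

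Pou5f1 (chromosome 17, 35506032 to 35510777) stood at 6.75, 6.93 and 7.61 CPM in WT and at 4.64, 4.98 and 5.51 CPM in MLX KO, again with every MLX KO library below every WT library. Its LFC was −0.49 ± 0.13 (SE), with an interval from −0.78 to −0.21 and an adjusted p of 0.00937. The pairs differed by log2 ratios of −0.54, −0.48 and −0.47, the most even of the genes called. It too passed in 11 of 13 alternatives: the LFC was −0.35 with library size alone (adjusted p 0.0541) and −0.52 in DESeq2 with the replicate block (adjusted p 0.0874). Of its exon bases 14.1% overlap Gm19553 on the opposite strand, and Pou5f1 has pseudogene copies in the mouse genome. Whether the counting used strand, and how it treated reads that match several places, is not given in the sources used here, so the Pou5f1 value is uncertain to that extent. Antisense genes overlap 7.60% of the exon bases of Gfra1, 2.84% of those of Eomes and, in Id4, 4.44% (Gm49291) and 2.13% (A330033J07Rik).

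Zbtb16 (chromosome 9, 48651797 to 48836225), the zinc finger factor that marks undifferentiated spermatogonia, varied widely between libraries of the same genotype. Its levels were 3.95, 2.99 and 5.47 CPM in WT and 7.27, 4.65 and 4.50 CPM in MLX KO. MLX KO replicates 2 and 3 fell inside the WT range and only replicate 1 stood above it. The LFC of 0.40 ± 0.24 (SE) had an interval from −0.13 to 0.93 and an adjusted p of 0.197, and it was 0.14 to 0.65 when single libraries were left out.

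**Figure D2:**
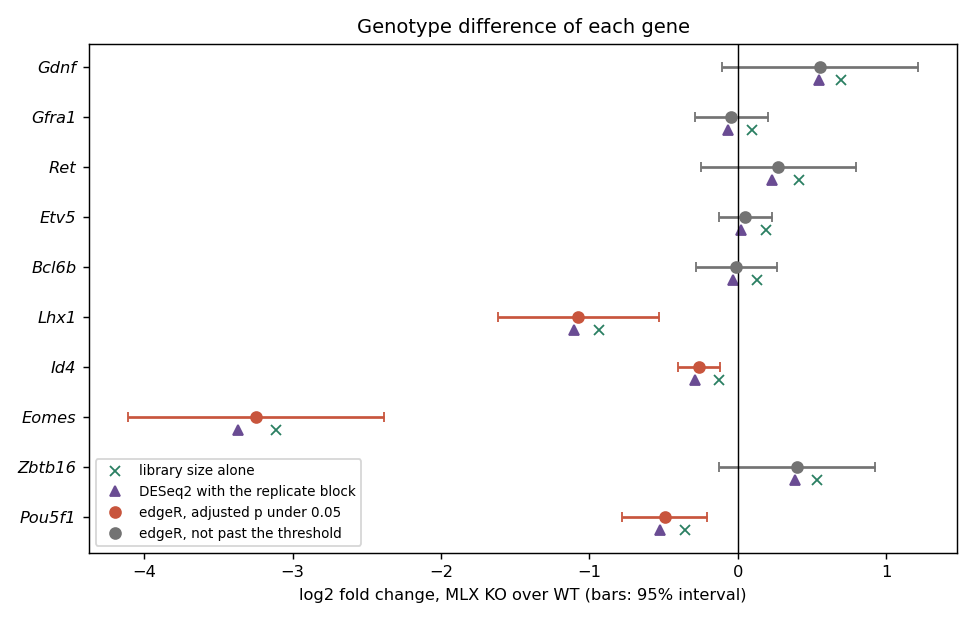
LFC of MLX KO over WT for the 10 genes, with circles and 95% intervals from edgeR, crosses for scaling by library size alone and triangles for DESeq2 with the littermate pair as a term. Only the intervals of Lhx1, Id4, Eomes and Pou5f1 lie wholly below 0, and library size alone shifts every gene to the right.

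Levels between genes were compared per kilobase of exon (RPKM, CPM divided by exon length). In WT the order was Id4 at 8.52, Etv5 at 6.70, Pou5f1 at 3.16, Gfra1 at 2.39, Bcl6b at 1.60, Zbtb16 at 0.783, Lhx1 at 0.721, Eomes at 0.380, Gdnf at 0.332 and Ret at 0.246 RPKM. Of these neighbours Zbtb16 and Lhx1, Eomes and Gdnf, and Gdnf and Ret overlapped over their 3 libraries. The genes that moved did not share a level: Id4 led the order and Eomes stood near its end. In MLX KO the order was Id4 at 7.11, Etv5 at 6.94, Gfra1 at 2.32, Pou5f1 at 2.24, Bcl6b at 1.58, Zbtb16 at 1.04, Gdnf at 0.494, Lhx1 at 0.341, Ret at 0.298 and Eomes at 0.0381 RPKM. Here Id4 and Etv5, Gfra1 and Pou5f1, Gdnf and Lhx1, and Lhx1 and Ret overlapped, so that Etv5 had closed on Id4 and Eomes had dropped to the last place with no overlap with Ret.

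Relative to Gfra1 in the same library the pattern was compared with no library scaling at all, a choice made after seeing the data. The fitted LFC of Gfra1 was −0.04, so the ratios had to stay close to the fitted LFCs and are not a separate check of them. Per 100 Gfra1 counts, WT libraries held 12.9, 13.1 and 10.2 Eomes counts and MLX KO libraries 2.08, 0.847 and 0.837. For Lhx1 the WT ratios were 27.8, 24.0 and 16.4, against 8.33, 11.9 and 12.6 in MLX KO, and for Pou5f1 61.2, 47.6 and 55.3 against 37.5, 38.1 and 43.5. These 3 genes were lower relative to Gfra1 in every MLX KO library than in any WT library. Id4 was barely so, at 310, 223.1 and 231 in WT against 218, 206 and 223.0 in MLX KO. An exact two-sided permutation test, which left the littermate pairs aside, gave p = 0.1 for each of these 4. That is the smallest p that 3 against 3 allows, so the test could not pass 0.05. After adjustment over the 9 ratios it was 0.225. The log2 difference of the ratio was −3.40 for Eomes, −1.05 for Lhx1, −0.46 for Pou5f1 and −0.22 for Id4. Ratios of Gdnf, Ret, Etv5, Bcl6b and Zbtb16 overlapped between genotypes, with exact permutation p-values from 0.3 to 0.8 (n = 3). The share of all genes without overlap was not computed for this ratio. By CPM, 25.9% of all genes tested were lower without overlap.

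**Figure D3:**
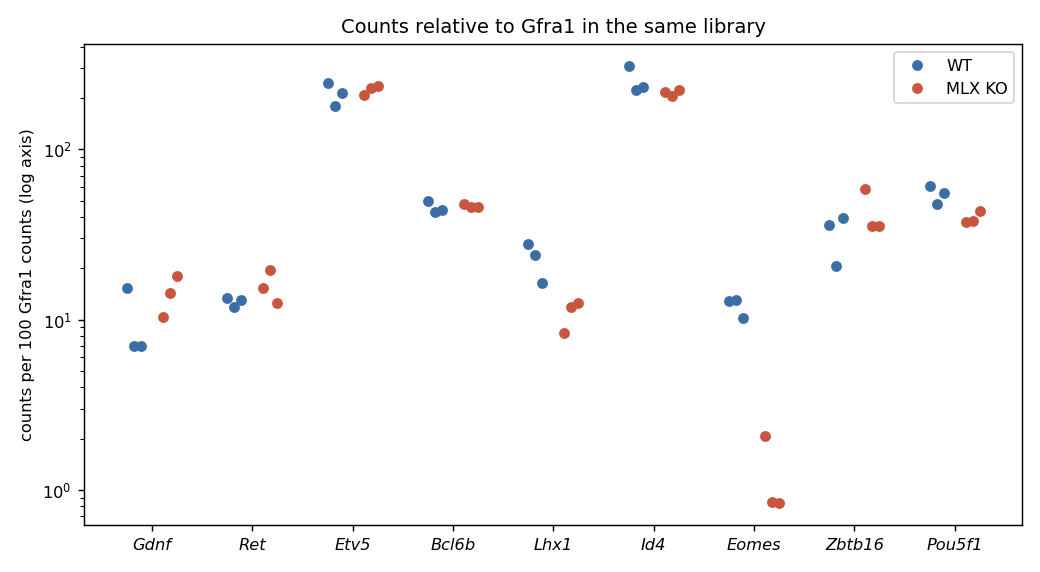
Counts of 9 genes per 100 counts of Gfra1 in the same library, on a log axis, with WT in blue and MLX KO in red and replicates 1 to 3 from left to right. The MLX KO points lie below all WT points for Eomes, Lhx1, Pou5f1 and, narrowly, Id4, with Eomes at 0.837 to 2.08 against 10.2 to 13.1.

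Around the 10 genes, the remaining ligands and receptors of the GDNF family were read from a list of 9, all counted and 6 with enough counts to test. Gas1, a co-receptor-like protein that binds RET, was higher, and Gfra2, Gfra4 and Ncam1 were lower, which is 66.7% called against 45.4% of all genes, with a list median LFC of −0.28. Gas1 averaged 2.45 ± 0.274 CPM in WT and 4.92 ± 0.288 CPM in MLX KO (SD, n = 3), for an LFC of 1.01 ± 0.16 (SE) with an adjusted p of 0.000576. Ncam1, an alternative signalling receptor for GDNF, had an LFC of −0.33 (adjusted p 0.0089). Gfra2, the neurturin co-receptor, and Gfra4, the persephin co-receptor, had LFCs of −0.33 (adjusted p 0.0191) and −0.23 (adjusted p 0.043). Those 2 calls were fragile: Gfra2 had an adjusted p of 0.0539 without WT replicate 1 and 0.087 without WT replicate 2. The adjusted p of Gfra4 was 0.115 and 0.129 without WT replicate 2 and 3, and 0.083 and 0.119 without MLX KO replicate 1 and 2. Gfra2 was still the most abundant of the list, at 49.9 CPM in WT and 39.6 CPM in MLX KO. With library size alone 1 gene of the list was called, Gas1, without WT replicate 2 there were 2, Ncam1 and Gas1, and DESeq2 with the replicate block called 2, Gfra2 and Gas1. Pspn and Gfral had at most 2 counts in any library.

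Adaptors and kinases through which RET signals were read from a list of 17. Of these 15 were tested, 7 were higher and 1 was lower, with a median LFC of 0.19. Among the 7, the call of Frs2 held in 3 of 13 alternatives. The share called in either direction was 53.3%, against 45.4% of all genes. By direction, 24.8% of all genes were called higher and 20.6% lower, against 7 and 1 of these 15. The largest increases were those of the SRC-family kinase Lyn, at 1.08 ± 0.23 (SE, adjusted p 0.00338), the adaptor Grb2, at 0.65 ± 0.08 (SE, adjusted p 0.000115), and the phosphatase Ptpn11, at 0.52 ± 0.11 (SE, adjusted p 0.00296). The gene that fell was Grb7, an adaptor that docks on activated receptor kinases, from 3.32, 3.05 and 3.67 CPM in WT to 1.19, 1.60 and 0.900 CPM in MLX KO. Its LFC of −1.45 ± 0.23 (SE) had an adjusted p of 0.00058, the groups did not overlap and the call held in 13 of 13 alternatives. Dok5 and Dok6 had at most 2 counts in any library. Lyn, Grb2 and Ptpn11 are in use in many cell types, macrophages among them. The median LFC was 1.28 for macrophage, 1.07 for Leydig and 0.78 for Sertoli markers. The part of any of these cells in the increases was not tested.

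Genes known to be induced by GDNF in SSC cultures, other than members, came next. Of 14 listed, 12 were tested, 8 were higher and 0 were lower by edgeR, with 0 lower at an unadjusted p under 0.05 and 0 by DESeq2, and the median LFC was 0.72. That is 66.7% called higher, where 24.8% of all genes were called higher and 20.6% lower. Of the 8 calls, Pou3f1 passed in 5 of 13 alternatives and Etv4 in 3 of 13. The 13 include the filter of 1 CPM in 3 libraries, under which Etv4 was not tested. Fits without a single library called 6 to 7 of the list, and DESeq2 called 6. The immediate early factors Fos and Egr2 and the tetraspanin Tspan8 rose most. Fos stood at 0.105, 0.636 and 0.677 CPM in WT and at 3.30, 1.94 and 1.32 CPM in MLX KO, an LFC of 2.24 ± 0.49 (SE, adjusted p 0.0037). The LFC of Egr2, a gene under 1 CPM in every library, was 1.95 ± 0.40 (SE, adjusted p 0.00236), and that of Tspan8 was 1.63 ± 0.22 (SE, adjusted p 0.000193). The gene T (Brachyury) was at 0 or 1 count in every library. DESeq2 with the replicate block called 5 of these genes, Fos, Cxcr4, Tspan8, Ccnd2 and Dusp6, and Egr2 was not among them (adjusted p 0.0653). These genes are used by somatic cells of the testis too. The median LFC of their marker lists was 0.78 for Sertoli, 1.07 for Leydig, 0.59 for myoid and 0.62 for endothelial cells. All Sertoli and Leydig markers were called higher, as were 5 of 6 myoid and 3 of 7 endothelial markers, against 24.8% of all genes. The part of those cells in the increase was not tested.

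Markers of undifferentiated spermatogonia outside the 10 genes were called about as often as genes at large. Of 32 listed, 31 had a row and 21 were tested, of which 6 were higher and 2 were lower, or 38.1% called against 45.4% of all genes, with a median LFC of 0.10. Shisa6, a marker of GFRA1-positive cells, went from 0.474, 0.763 and 0.507 CPM to 2.53, 1.38 and 1.75 CPM, an LFC of 1.71 ± 0.33 (SE, adjusted p 0.00165). Plvap had an LFC of 1.34 ± 0.33 (SE, adjusted p 0.00684) and the integrin Itga6 one of 0.91 ± 0.07 (SE, adjusted p 7.98e-06). Plvap is also an endothelial protein and Itga6 is made by several somatic cell types. Prom1, which the study had picked as lowered in these samples, fell from 206, 188 and 195 CPM to 139, 115 and 109 CPM, an LFC of −0.70 ± 0.08 (SE, adjusted p 7.61e-05). At 196 CPM in WT it was far more abundant than Gfra1, and Bmi1, the other marker that was lower, stood at 202 CPM, with an LFC of −0.22 ± 0.05 (SE, adjusted p 0.00293) that did not pass with library size alone (adjusted p 0.0893). DESeq2 with the replicate block called 5 of the list: Itga6, Foxo1, Bmi1, Shisa6 and Prom1. Among the 6 that were higher, the call of Uchl1 held in 3 of 13 alternatives. Nanos2, an RNA-binding protein of the primitive SSC, and Pdx1 had at most 2 counts in any library, so no comparison could be made for them.

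Among 8 markers of differentiating spermatogonia, all tested, 1 was higher and 1 lower, or 25% against 45.4% of all genes called, with a median LFC of −0.06. Kit, the receptor that appears when spermatogonia commit, averaged 22.4 ± 3.09 CPM in WT and 39.2 ± 6.70 CPM in MLX KO (SD, n = 3), for an LFC of 0.81 ± 0.13 (SE, adjusted p 0.000524), and Leydig cells, whose markers rose, make Kit as well. Dmrtb1, a factor of the mitosis to meiosis switch, averaged 647 ± 15.1 CPM in WT and 512 ± 35.6 CPM in MLX KO (SD, n = 3), for an LFC of −0.34 ± 0.06 (SE, adjusted p 0.000757).

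Every niche factor from somatic cells that could be tested rose in MLX KO. Of 13 listed, Fgf2, Fgf9, Nrg1 and Inhba had too few counts, and the other 9 were all higher, with 0 lower by edgeR, 0 lower at an unadjusted p under 0.05 and 0 by DESeq2, and the median LFC was 0.90, where 24.8% of all genes were called higher. The largest increases were those of the cytokine Lif, 1.54 ± 0.32 (SE, adjusted p 0.00245), the macrophage growth factor Csf1, 1.50 ± 0.13 (SE, adjusted p 1.62e-05), and the chemokine Cxcl12, 1.36 ± 0.13 (SE, adjusted p 2.35e-05). For Csf1 the levels were 4.59, 4.45 and 5.64 CPM in WT and 12.2, 13.9 and 15.4 CPM in MLX KO, and for Cxcl12 17.5, 17.4 and 18.1 CPM against 35.3, 53.6 and 47.6 CPM. Lif stayed at or under 1.16 CPM in every library, and its adjusted p was 0.0902 in DESeq2 with the replicate block. The median LFC was 0.78 for Sertoli, 1.07 for Leydig and 0.59 for myoid markers, and the part of those cells in these increases was not tested. Gdnf, the niche factor among the 10 genes, did not pass the test. Its interval, from −0.11 to 1.22, held the list median of 0.90.

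Factors reported to control Gdnf in Sertoli and myoid cells were split. Of 8, all tested, 2 were higher (Fshr and Notch1) and 3 were lower (Hey1, Jag1 and Crem), or 62.5% against 45.4% of all genes called, with a median LFC of 0.05. The FSH receptor gene Fshr, itself among the Sertoli markers, had an LFC of 1.14 ± 0.21 (SE, adjusted p 0.00123) and Notch1 one of 0.83 ± 0.14 (SE, adjusted p 0.000648). The Notch ligand Jag1, at −0.39 ± 0.08 (SE, adjusted p 0.0025), and the Notch target and repressor Hey1, at −0.56 ± 0.12 (SE, adjusted p 0.00276), were lower in every MLX KO library than in any WT library. Crem, at −0.20 ± 0.05 (SE, adjusted p 0.0113), is a spermatid factor also, and its adjusted p was 0.0558 without WT replicate 2 and 0.0609 and 0.0509 without MLX KO replicate 2 and 3, and with library size alone its LFC was −0.058 (adjusted p 0.303).

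**Figure D4:**
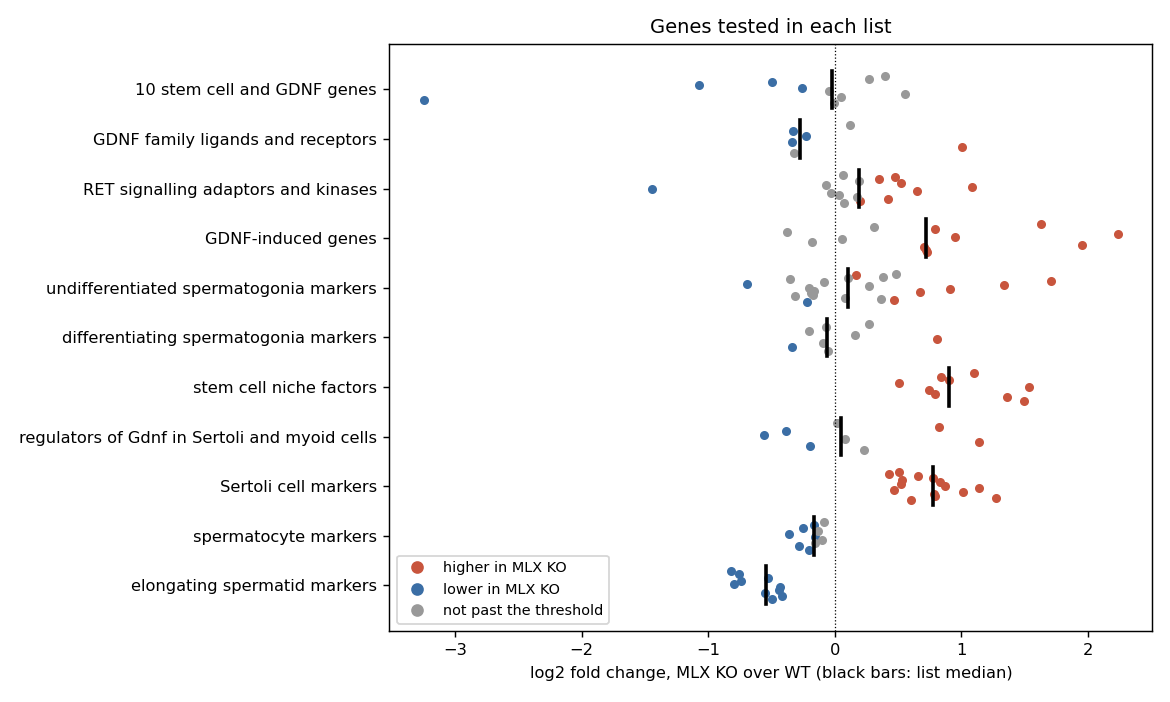
LFC of MLX KO over WT for every gene tested in 11 lists, 1 point a gene, in red where called higher, blue where called lower and grey where not past the threshold, with a black bar at the list median. The 10 genes have a median of −0.03 and no red point, next to medians of 0.72 for genes induced by GDNF, 0.90 for niche factors and −0.54 for elongating spermatid markers.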

How the data were processed

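Total RNA of whole testes from 3 WT and 3 MLX KO littermates was sequenced in paired ends. The authors aligned the reads to mm10 with TopHat and deposited raw counts, whole numbers per gene symbol and library, without pooling replicates. The counting program and its annotation are not given in the sources used here, and bcl2fastq 1.8.4 is named in the submitters' processing notes. The same table holds the authors' own comparison (mean, log2 fold change, its error, test statistic and p-values), which was not used, and the ChIP-Seq samples were not analysed here.

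Of 17933 rows 2 were repeats. Counts were filtered with filterByExpr (minimum count 10), scaled by TMM and fitted with genotype as the only term in edgeR 4.0.16 (R 4.3.3, quasi-likelihood F-test, two-sided), with Benjamini-Hochberg adjustment over 14640 genes and a threshold of 0.05. SEs were the LFC divided by the root of F. CPM used TMM-scaled library sizes, and exon lengths came from GENCODE M21. DESeq2 1.42.0, other scalings and filters, the littermate block and fits without each library were alternatives. The exact permutation test used scipy 1.17.1. In simulated counts for this comparison, over 14546 genes, edgeR recovered 99% of 200 genes changed by 1.5 on the log2 scale and called 11 unchanged genes. The simulation gave every gene the same dispersion and moved the 200 genes up and down in equal number. In the real libraries 45.4% of all genes were called, so these values are not the power or error rate of the comparison itself. No libraries were duplicates: chi-square per degree of freedom within a genotype was 2.66 to 7.92. MLX KO replicate 1 stood apart, at 7.91 and 7.92 against MLX KO replicates 2 and 3, which gave 2.66 between them. WT pairs gave 2.93 to 4.16. Without MLX KO replicate 1 the genes called rose from 6649 to 7395, and without any other single library they were 5130 to 5807.

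Replicate numbers paired the samples, since the labels call them paired replicates and the study used littermates. The deviations of same-numbered libraries correlated at 0.145, 0.0363 and 0.121, and those of other pairs at 0.0330 or less. The 10 genes and the gene lists were chosen with earlier results of these data known. Named beside the 10 were, in each list, up to 3 genes with the largest increase and up to 3 with the largest decrease among those called, genes at or under 3 counts in every library, and Prom1; marker lists of other cell types are given as counts, summed CPM and their most abundant gene. Of the gene list for regulators of Gdnf, 1 gene was left out and is not reported here. Genes named outside this rule were named after their values were seen.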

Additional observations from a re-analysis of the deposited data

How the results depend on the processing

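Scaling by library size alone or DESeq2 with the replicate block called 2 of the 10 genes lower, Eomes and Lhx1, in place of 4, while every fit without a single library called 4 (range 4 to 4), and 0 were higher in any setting. Library size alone moved the median LFC of all genes by 0.14, the share of calls that were higher from 54.7% to 80.8% and the genes called lower from 3015 to 1268, and DESeq2 with the replicate block called 2249 genes higher in place of 3634. The GDNF family list went from 4 calls to 1 with library size alone and 2 with DESeq2 and the replicate block, and to 2 to 5 when single libraries were left out. In DESeq2 with the replicate block, 5 genes induced by GDNF (8 in the reported fit) and 5 markers of undifferentiated spermatogonia (8) were called. Signs turned for genes that were never called: Gfra1 had an LFC of 0.10 with library size alone and −0.16 to 0.035 when single libraries were left out (positive without WT replicate 2), and Bcl6b had 0.13 with library size alone, −0.066 to 0.026 when single libraries were left out (0.026 without WT replicate 2, 0.010 without WT replicate 3, 0.0063 without MLX KO replicate 3) and 0.029 as a ratio to Gfra1. Egr2, Etv4 and Lif were not tested under the filter of 1 CPM in 3 libraries. The cause of these changes was not tested. The replicate block in edgeR changed none of the 10 calls, with 4 genes lower. The WT and MLX KO libraries are 3 each, and Eomes, Gdnf, Ret and Lhx1 rest on under 60 counts a library, where intervals on the LFC span more than 1 unit.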
